A study of Arabidopsis thaliana with 6 samples.

Results

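Of the 26726 genes in the expression table of Arabidopsis root explants, 20 were at least 2 times higher in wild type than in both genotypes altered at the transcription factor gene ARR1. Members had to have a mean of at least 5 CPM (a gene's summed estimated counts, scaled to a common library total) in the WT libraries. In addition, each WT library had to reach at least 2 times the level of the arr1-labelled library and of the Pro35SARR1 library with the same replicate number, so that 4 ratios decided membership. The genes were thus chosen by their measured CPM in all 6 libraries, and the differences from WT described here are descriptions, not findings. Both comparisons with WT used the same 2 WT libraries, so a gene that was high in those 2 libraries for any reason met both requirements of the rule at once.

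RNA was sequenced from explants of WT, the arr1 mutant and Pro35SARR1, a line labelled with ARR1 under the 35S promoter, which drives expression in most plant tissues, with 2 libraries per genotype. In every genotype the explants were kept for 5 days on a medium that induces callus (CIM), then for 7 days on one that induces shoots (SIM). SIM held the cytokinin N6-(2-isopentenyl)adenine at 1 mg/L and IAA, an auxin, at 0.15 mg/L. Light was continuous and the temperature was 22 °C. Neither the arr1 allele nor the number of independent 35S lines is given in the sources used here. Whether the 2 libraries of a genotype stem from separate cultures is not stated. The p-values thus reflect the variation among the libraries at hand, and it may be purely technical.

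ARR1 belongs to the type-B response regulators, DNA-binding proteins at the end of the cytokinin phosphorelay that runs from membrane receptors through phosphotransfer proteins to the nucleus. On SIM, cytokinin acts through such regulators while callus formed from root tissue gives rise to new shoot meristems. Type-B regulators are known to bind DNA with the core AGATT.

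The level of ARR1 was 60.4 and 56.7 CPM in WT replicates 1 and 2, 65.0 and 61.5 CPM in the arr1-labelled libraries, and 1701 and 1852 CPM in Pro35SARR1. The ARR1 level thus set Pro35SARR1 apart but did not tell the arr1-labelled libraries from WT. Total estimated counts ran from 8193313 to 9381532 per library, at which 3 counts, used as a floor, correspond to 0.320 to 0.366 CPM. Floors cover counting error only.

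The rule picked 0.138% of the 14502 genes with a mean WT level of at least 5 CPM. With the genotypes exchanged, the same rule picked 340 genes (2.26%) that were high in the arr1-labelled libraries and 174 genes (1.19%) that were high in Pro35SARR1. Its mirror image, WT at no more than 0.5 times both other genotypes, picked 26 genes (0.174%). The 3 members closest above the threshold were RL4, AT3G44970 and AT1G62510, with smallest ratios of 2.02, 2.03 and 2.09. The 3 genes closest below it were AT5G61412, AT1G67860 and AT4G16980, with smallest ratios of 1.96, 1.94 and 1.91.

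Members differed in how far the WT libraries stood clear. The rule already required WT to be at least 2 times the same-numbered libraries, so the counts given here follow in part from it. No share over all genes was worked out for the groups after the first. In 7 genes each WT library was at least 2 times every one of the other 4 libraries, whatever its number. These were CA1, AT3G02500, AT1G14890, AT3G27970, AT3G24880, AT2G39490 and GSL11. They were the only such genes among the 14502 with a mean WT level of at least 5 CPM, because any such gene meets the rule. In 6 genes both WT libraries were above the other 4 by less than that: AT3G05730, AT3G16670, CA2, AT3G44970, AT4G00780 and GPAT7. In the remaining 7 (AZI1, AT1G22900, CRK22, CRK21, RL4, PUP1 and AT1G62510) the lower WT library lay below at least 1 library of another genotype, and membership rested on comparing libraries with the same number.

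**Figure D1:**
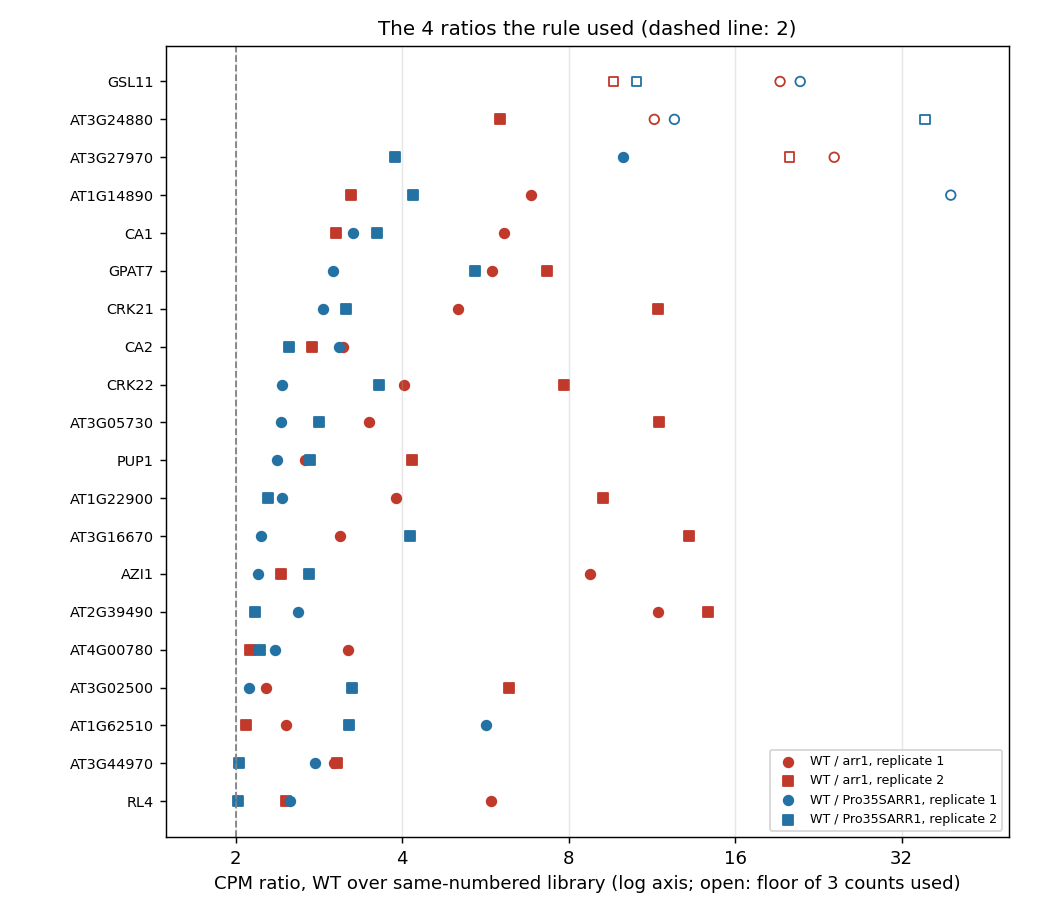
The 4 CPM ratios that decided membership, WT over the same-numbered arr1-labelled (red) or Pro35SARR1 (blue) library, for each of the 20 genes on a log axis; circles are replicate 1 and squares replicate 2, and open symbols mark a denominator at or under 3 counts, raised to that floor. RL4 lies nearest the dashed line at 2, and the smallest ratio of GSL11 is 9.64.

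The sequences just upstream of 4 members are shown because 2 of them, CRK21 and CRK22, lie side by side and had parallel levels, because AT4G00780 holds the most AGATT cores of the set, and because AT2G39490 alone passed the test between Pro35SARR1 and the arr1-labelled libraries. Each run is the 250 bases before the gene start in RefSeq TAIR10.1, read on the gene's strand, with AGATT or its reverse complement AATCT in capitals.
CRK21, chr4:12180937-12181186, minus strand: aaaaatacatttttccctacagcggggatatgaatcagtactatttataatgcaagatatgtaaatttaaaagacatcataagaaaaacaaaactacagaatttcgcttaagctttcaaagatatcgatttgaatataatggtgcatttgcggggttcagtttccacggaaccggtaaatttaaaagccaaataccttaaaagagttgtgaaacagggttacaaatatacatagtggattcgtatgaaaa
CRK22, chr4:12181375-12181624, plus strand: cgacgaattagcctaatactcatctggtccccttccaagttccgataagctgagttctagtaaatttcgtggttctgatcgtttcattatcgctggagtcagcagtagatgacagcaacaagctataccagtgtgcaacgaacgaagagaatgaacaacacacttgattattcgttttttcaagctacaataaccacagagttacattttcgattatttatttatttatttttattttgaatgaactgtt
AT4G00780, chr4:334323-334572, plus strand: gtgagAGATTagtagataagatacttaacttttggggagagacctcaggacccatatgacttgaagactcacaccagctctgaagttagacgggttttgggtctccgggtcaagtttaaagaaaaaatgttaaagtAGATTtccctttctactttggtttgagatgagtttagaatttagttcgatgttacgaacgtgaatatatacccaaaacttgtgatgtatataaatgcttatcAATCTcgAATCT
AT2G39490, chr2:16488646-16488895, minus strand: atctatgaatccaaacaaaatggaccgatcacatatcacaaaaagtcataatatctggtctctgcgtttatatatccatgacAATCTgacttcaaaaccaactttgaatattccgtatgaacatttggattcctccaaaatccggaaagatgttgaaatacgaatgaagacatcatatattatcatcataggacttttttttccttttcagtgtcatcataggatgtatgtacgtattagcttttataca
The window of AT4G00780 holds 4 cores, that of AT2G39490 holds 1, and those of CRK21 and CRK22 hold none.

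Among all 20 members, 13 had at least 1 AGATT on either strand in this window (65.0%), beside 63.5% of 25938 promoters of the same length. The motif TTGAC, the core of the W-box bound by WRKY factors, was in 45.0% of the members and 45.0% of all promoters. The G-box CACGTG was in 1 member (5.0%, against 6.56%) and the auxin response element TGTCTC in 3 (15.0%, against 10.8%). The GARP-type motif GNATATNC was in 2 members (10.0%, against 5.49%), and the E-box CANNTG, which contains the G-box, in 12 (60.0%, against 55.2%). These matches describe letters in a window and no binding was measured.

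Most of the RNA of the set came from a pair of genes for small secreted-type proteins. AT3G05730, annotated as a defensin-like protein, stood at 1933 and 1180 CPM in WT, 555 and 101 CPM in the arr1-labelled libraries, and 799 and 417 CPM in Pro35SARR1. Defensin-like proteins are short cysteine-rich peptides, many of them with roles in defence or in signalling between cells. AT3G16670, of the Pollen Ole e 1 allergen and extensin family, stood at 942 and 550 CPM in WT, 305 and 41.6 CPM in the arr1-labelled libraries and 423 and 133 CPM in Pro35SARR1. Both genes ranked the 6 libraries in the same order, with WT replicate 1 highest and arr1-labelled replicate 2 lowest. Per length, as FPKM (fragments scaled by transcript length and library size), AT3G05730 was 2.78 to 4.80 times as high as AT3G16670 within each library. The 2 genes together held 79.2% of the members' summed CPM in WT replicate 1. That sum was 3628 and 2168 CPM in WT, 1053 and 278 CPM in the arr1-labelled libraries, and 1487 and 706 CPM in Pro35SARR1.

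**Figure D2:**
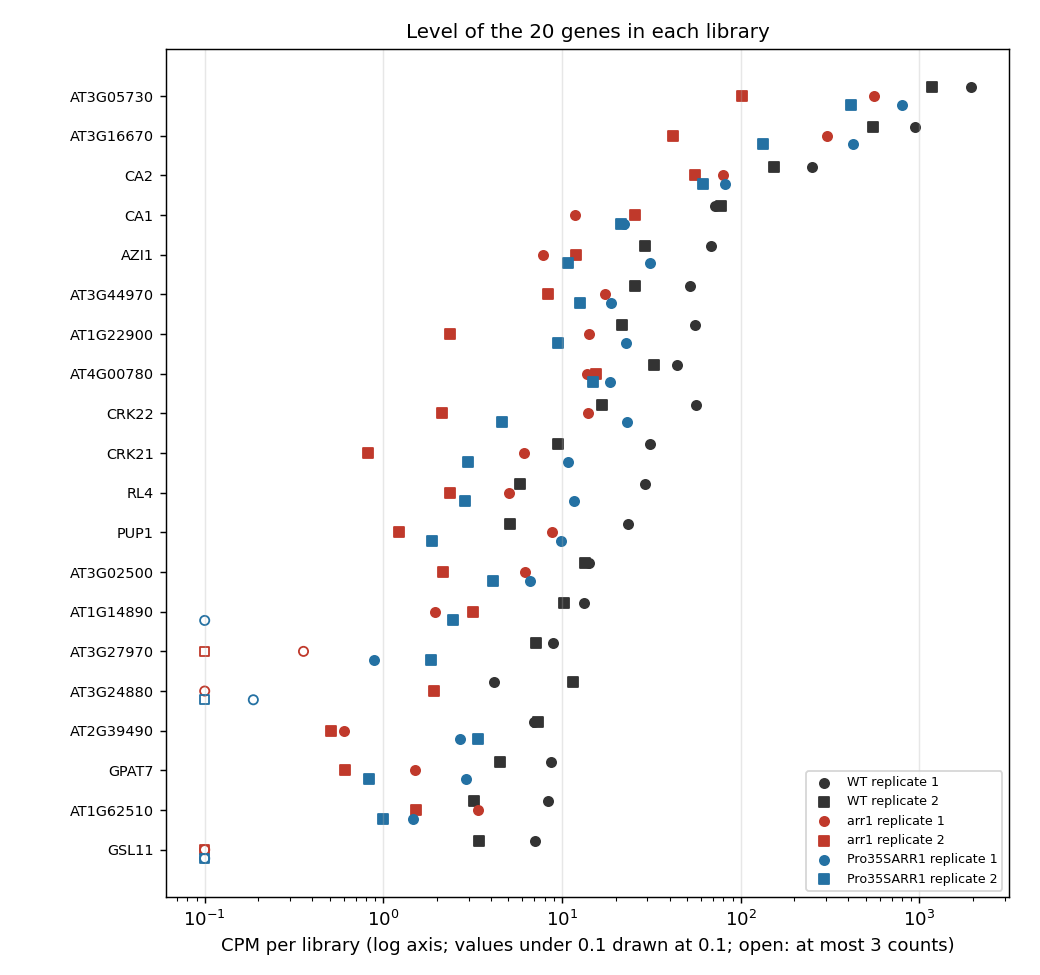
CPM of each of the 20 genes in each of the 6 libraries on a log axis; circles are replicate 1, squares replicate 2, values under 0.1 CPM are drawn at 0.1 and open symbols mark at most 3 counts. AT3G05730 reaches 1933 CPM in WT replicate 1, and GSL11 lies under 3 counts in all 4 libraries that are not WT.

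CA1 and CA2, a pair of beta carbonic anhydrases that interconvert CO2 and bicarbonate in leaves, were also members. CA2 stood at 250.015 and 153 CPM in WT, 80.0 and 55.5 CPM in the arr1-labelled libraries, and 81.4 and 61.1 CPM in Pro35SARR1. CA1, the chloroplast form, stood at 72.3 and 77.4 CPM in WT, 11.8 and 25.5 CPM in the arr1-labelled libraries, and 22.1 and 21.5 CPM in Pro35SARR1. For both genes the 2 WT libraries were the highest, and the other 2 genotypes overlapped. The FPKM of CA2 was 1.84 to 6.37 times that of CA1, so the 2 forms did not keep 1 ratio.

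The other 4 beta carbonic anhydrases were not members. BCA4 stood at 67.6 and 64.5 CPM in WT, 54.2 and 44.1 CPM in the arr1-labelled libraries, and 85.6 and 73.1 CPM in Pro35SARR1. BCA5 stayed between 46.2 and 55.0 CPM in all 6 libraries, and BCA6 was highest in an arr1-labelled library at 23.6 CPM. BCA3 did not exceed 1.01 CPM. The summed level of 24 of 27 listed photosynthesis genes, of light harvesting, the photosystems and carbon fixation, was 11018 to 13481 CPM in WT, 9897 to 10473 CPM in the arr1-labelled libraries and 6003 to 8398 CPM in Pro35SARR1. The summed photosynthesis level was thus also highest in WT; its part in the levels of CA1 and CA2 was not tested, and fewer green cells and less RNA per cell cannot be told apart in these bulk samples. CA1 overlaps its neighbour AT3G01510 in the annotation, and no source used here states whether counting used strand.

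CRK21 and CRK22 were the only members next to each other in the genome. They encode cysteine-rich receptor-like kinases, membrane proteins of a large family with roles in stress and pathogen responses. On chromosome 4 of TAIR10.1 CRK21 occupies bases 12177734 to 12180936 on the minus strand and CRK22 bases 12181625 to 12184774 on the plus strand, so their start sites face away from each other across 688 bases. CRK22 stood at 56.2 and 16.8 CPM in WT, 14.0 and 2.14 CPM in the arr1-labelled libraries, and 23.2 and 4.62 CPM in Pro35SARR1. CRK21 stood at 31.0 and 9.49 CPM in WT, 6.14 and 0.816 CPM in the arr1-labelled libraries, and 10.8 and 2.99 CPM in Pro35SARR1. In both genes replicate 1 was above replicate 2 in each genotype, and replicate 1 of Pro35SARR1 was above replicate 2 of WT.

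The FPKM of CRK22 was 1.53 to 2.67 times that of CRK21 across the 6 libraries. Their neighbours did not share the level: CRK20, CRK23 and CRK24 were at 0.306 CPM or less in every library. Of 34 other cysteine-rich receptor-like kinases in the table, a family looked up after the members were known, 17 had enough counts for a test. CRK28 (AT4G21400) was called lower in the arr1-labelled libraries against WT, at −0.83 on the log2 scale (adjusted p = 0.0468, edgeR). None was called in the other genotype contrasts. Of all tested genes 1.9% were called lower in the arr1-labelled libraries against WT. In Pro35SARR1 the shares were 0.0% lower and 0.0885% higher against WT, and 2.38% lower and 4.09% higher against the arr1-labelled libraries. The median log2 fold change against WT over the 17 was 0.37 in the arr1-labelled libraries and 0.64 in Pro35SARR1, comparisons that share the WT libraries. CRK22 shares 14.3% of its exonic stretches of 50 bases with other loci, mainly CRK13, which stood at 0.400 to 3.32 CPM; CRK21 shares none.

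**Figure D3:**
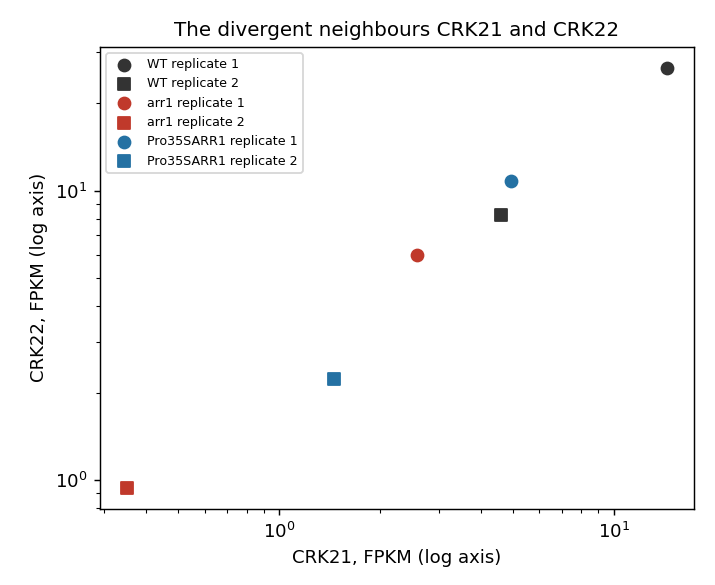
FPKM of CRK21 (x axis) and CRK22 (y axis) in each of the 6 libraries, both on log axes; black is WT, red arr1-labelled, blue Pro35SARR1, circles replicate 1 and squares replicate 2. The points run from arr1-labelled replicate 2, at 0.352 and 0.939 FPKM, to WT replicate 1, at 14.4 and 26.5 FPKM.

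Further members have annotated roles at the cell surface or in lipid and wall chemistry. AZI1, a lipid transfer protein-like gene needed for azelaic acid to prime systemic immunity, stood at 68.6 and 29.1 CPM in WT, 7.83 and 12.04 CPM in the arr1-labelled libraries, and 31.3 and 10.7 CPM in Pro35SARR1. Its WT replicate 2 was below Pro35SARR1 replicate 1. Of its neighbours of the same protein family, EARLI1 stood at 22.5 and 4.80 CPM in WT against 3.37 and 6.84 CPM in the arr1-labelled libraries, so it failed the rule in replicate 2. AT1G62510, another gene of the lipid transfer and 2S albumin superfamily, stood at 8.31 and 3.1998 CPM in WT, 3.37 and 1.53 CPM in the arr1-labelled libraries, and 1.46 and 0.998 CPM in Pro35SARR1. Both Pro35SARR1 libraries were below both arr1-labelled libraries for this gene.

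AT1G22900, of the dirigent-like family whose members steer the coupling of lignan and lignin precursors, stood at 55.4 and 21.7 CPM in WT, 14.2 and 2.35 CPM in the arr1-labelled libraries, and 22.8 and 9.48 CPM in Pro35SARR1. In this family, looked up after the members were known, 17 others were tested. Of these, 16 were fitted below 0 in the arr1-labelled libraries against WT (median log2 fold change −0.96), as were 50.2% of all tested genes. In edgeR 4 were called lower there, and the same 4 higher in Pro35SARR1 against the arr1-labelled libraries. Of all tested genes 1.9% and 4.09% were called in these directions. Both contrasts use the same arr1-labelled libraries, so low values in those libraries can give both calls at once. None of the 17 was called in Pro35SARR1 against WT, where 0.0% of all tested genes were called lower and 0.0885% higher. GPAT7, a glycerol-3-phosphate acyltransferase of the clade that makes precursors of suberin and cutin, stood at 8.73 and 4.48 CPM in WT, 1.498 and 0.611 CPM in the arr1-labelled libraries, and 2.91 and 0.827 CPM in Pro35SARR1. Of 7 other tested genes named GPAT, GPAT5 and GPAT6 were called lower in the arr1-labelled libraries against WT, beside the same 1.9% of all tested genes. No GPAT gene was called in Pro35SARR1 against WT, as for nearly all tested genes. In Pro35SARR1 against the arr1-labelled libraries, which both contrasts share, GPAT6 was called higher and GPAT8 lower, beside 4.09% and 2.38% of all tested genes. The WT libraries were the highest for GPAT7 and not for AT1G22900. The summed level of 24 Casparian strip and suberin genes was 1007 to 1425 CPM in WT, 791 to 838 CPM in the arr1-labelled libraries and 760.1 to 1154 CPM in Pro35SARR1. The arr1-labelled libraries were below WT for this sum and Pro35SARR1 overlapped both; its part in the level of GPAT7 was not tested. AT1G14890, of the family of invertase and pectin methylesterase inhibitors, stood at 13.2 and 10.2 CPM in WT, 1.93 and 3.16 CPM in the arr1-labelled libraries, and 0 and 2.45 CPM in Pro35SARR1. Against the floor of 3 counts, WT replicate 1 was at least 39.3-fold higher than Pro35SARR1 replicate 1 for this gene.

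GSL11, a member of the callose synthase family, which makes the beta-glucan callose, was above the floor of 3 counts only in WT. It had 63.7 and 32.4 estimated counts in the WT libraries (7.07 and 3.45 CPM) and 0.0209 or fewer estimated counts in each of the other 4. Against the floor, WT was at least 19.3-fold higher than the arr1-labelled library in replicate 1 and at least 9.64-fold higher in replicate 2. Against Pro35SARR1 it was at least 21.0-fold and 10.6-fold higher. None of its 6604 exonic stretches of 50 bases occurs elsewhere in the genome. The table holds 13 other callose synthases, of which 11 were tested, and none was called in any of the 3 genotype contrasts. Of all tested genes at most 1.9% were called in either direction against WT, and at most 4.09% in Pro35SARR1 against the arr1-labelled libraries. No call among 11 genes is near those shares, and GSL11 itself was not called in these contrasts either.

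PUP1, a purine permease that takes up adenine and can carry cytokinins, stood at 23.5 and 5.10 CPM in WT, 8.79 and 1.22 CPM in the arr1-labelled libraries, and 9.89 and 1.87 CPM in Pro35SARR1. RL4, a small MYB-type protein related to RADIALIS of snapdragon, stood at 29.3 and 5.80 CPM in WT, 5.06 and 2.35 CPM in the arr1-labelled libraries, and 11.7 and 2.87 CPM in Pro35SARR1. In both genes WT replicate 2 was below the replicate 1 library of Pro35SARR1. AT3G44970, a cytochrome P450, stood at 52.1 and 25.5 CPM in WT, 17.3 and 8.37 CPM in the arr1-labelled libraries, and 18.7 and 12.6 CPM in Pro35SARR1. AT4G00780, of the TRAF-like family, had a narrow spread within each genotype. It stood at 43.8 and 32.9 CPM in WT, 13.7 and 15.5 CPM in the arr1-labelled libraries, and 18.5 and 14.8 CPM in Pro35SARR1. For AT3G44970 and AT4G00780 the WT libraries were the highest of the 6.

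AT2G39490, an F-box family gene, stood at 7.00 and 7.30 CPM in WT, 0.602 and 0.510 CPM in the arr1-labelled libraries, and 2.70 and 3.37 CPM in Pro35SARR1. The 3 genotypes did not overlap, and Pro35SARR1 lay between the others. F-box proteins usually recruit targets to ubiquitin ligases. AT3G27970, of the exonuclease family, had 79.8 and 67.4 estimated counts in WT, 2.93 and 0.00267 in the arr1-labelled libraries, and 7.86 and 17.1 in Pro35SARR1. AT3G02500, named in RefSeq for a GTPase-activating protein, stood at 14.1 and 13.4 CPM in WT, 6.23 and 2.15 CPM in the arr1-labelled libraries, and 6.66 and 4.13 CPM in Pro35SARR1. Its end overlaps AT3G02510 in the annotation.

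AT3G24880, annotated as a helicase/SANT-associated DNA-binding protein, shares 67.3% of its exonic stretches of 50 bases with AT3G24870, the adjacent gene of the same annotation, so the estimated counts of the pair are uncertain. The member stood at 4.19 and 11.5 CPM in WT, 0.0367 and 1.91 CPM in the arr1-labelled libraries, and 0.187 and 0.00175 CPM in Pro35SARR1. AT3G24870 stood at 29.4 and 21.5 CPM in WT, 38.3 and 32.0 CPM in the arr1-labelled libraries, and 27.1 and 23.8 CPM in Pro35SARR1. The sum of both was 33.6 and 33.0 CPM in WT, 38.3 and 33.9 CPM in the arr1-labelled libraries, and 27.3 and 23.8 CPM in Pro35SARR1. WT lay between the other genotypes for the sum, and the pair counted as 1 locus did not meet the rule. The share of the pair assigned to AT3G24880 was 12.5% and 34.8% in WT and 5.62% or less in each other library.

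**Figure D4:**
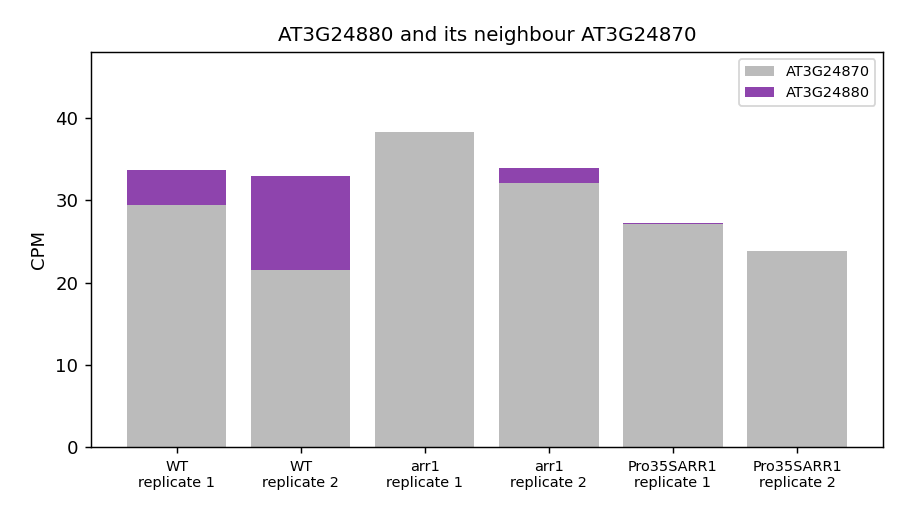
CPM assigned to AT3G24870 (grey) and, stacked on it, to AT3G24880 (purple) in each of the 6 libraries. The summed height is 33.6 and 33.0 CPM in WT and 23.8 to 38.3 CPM in the other 4 libraries, while the purple share reaches 34.8% in WT replicate 2.

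All 20 members were tested in fits across 18083 genes with the edgeR quasi-likelihood test. The rule used the 2 contrasts with WT, so their counts are given without a reading. Against WT, 5 members were called lower in the arr1-labelled libraries at an adjusted p under 0.05 (AT2G39490, CA1, AT3G27970, AT4G00780 and CA2), and none was called higher; of all tested genes 1.9% were called lower there and 1.09% higher. In Pro35SARR1 against WT no member was called, and of all tested genes 0.0% were called lower and 0.0885% higher. In that contrast 12 members had an unadjusted p under 0.05, all lower, as had 4.82% of all tested genes in this direction. DESeq2 called 4 members lower there, and 0.414% of all genes it tested. With the replicate number as a block, 17 members were called lower in the arr1-labelled libraries and 5 in Pro35SARR1, beside 9.51% and 0.89% of all tested genes. Leaving out any 1 of the 6 libraries gave 0 called members in both contrasts, with 0 to 11 of all tested genes called lower in the arr1-labelled libraries and 0 in Pro35SARR1. The median log2 fold change over the members was −2.34 in the arr1-labelled libraries and −1.42 in Pro35SARR1, beside −0.00 for all tested genes in each. For arr1 and WT, the authors' deposited table lists 437 genes, 177 of them as down, beside 26726 genes in the expression table. It lists 6 members, all as down: AT1G14890, AT2G39490, CA1, AT3G27970, AT4G00780 and GPAT7. That comparison rests on the same WT and arr1-labelled libraries as the rule, so this overlap is also given without a reading.

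The difference between Pro35SARR1 and the arr1-labelled libraries was not part of the rule, although the rule used the CPM of all 4 libraries and the fit took its spread from all 6, WT included. In it 1 of 20 members was called higher (5.0%) and none lower, beside 4.09% of all tested genes called higher and 2.38% lower, so the members' share was near the background. The called gene was AT2G39490, higher in Pro35SARR1 by 2.56 on the log2 scale (SE 0.387, adjusted p = 0.0266, edgeR), with both Pro35SARR1 libraries above both arr1-labelled ones. Fitted on these 4 libraries alone, its adjusted p was 0.0452 in edgeR. Leaving out any 1 of these 4 libraries ended that call, at log2 fold changes of 2.38 to 2.73, and left 5 to 27 of all tested genes called higher. With the replicate block AT1G22900 and CRK21 were called as well, with adjusted p of 0.0431 and 0.0473 in edgeR, and 11.5% of all tested genes were called higher.

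Most members were fitted higher in Pro35SARR1 without passing the test. Fitted log2 fold changes were above 0 for 16 members and below 0 for 3 (AT1G14890, AT1G62510 and AT3G24880), and GSL11 was under the floor in both genotypes; 48.3% of all tested genes were above 0. The median over the 20 was 0.63, and 0.79 over the 19 with a fold when AT3G27970 and AT3G24880 were set to the floor, beside −0.02 over all tested genes. In 13 of 20 members the arr1-labelled library was below the Pro35SARR1 library in both replicate numbers. The share over all genes with a mean WT level of at least 5 CPM was 27.7%. The rule used the CPM of these libraries, and its ratios to Pro35SARR1 alone were met by 51 genes, those to arr1 alone by 258. All genes are therefore not a like background for the direction of the members in this contrast. The remaining 18 members with a fold had adjusted p of 0.128 to 0.890. Without Pro35SARR1 replicate 1 the median was 0.047, and without arr1-labelled replicate 1 it was 1.55, so single libraries moved it by more than 1.5 times; without arr1-labelled replicate 2 it was 0.27 and without Pro35SARR1 replicate 2 it was 1.25.

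The members also varied between libraries of 1 genotype. Replicate 1 was above replicate 2 for 17 members in WT, 14 in the arr1-labelled libraries and 16 in Pro35SARR1. The shares over all genes with a mean WT level of at least 5 CPM were 55.6%, 55.4% and 52.7%. Replicate 1 was above in all 3 genotypes for 12 members, and replicate 2 was above in all 3 for none. Of all genes with a mean WT level of at least 5 CPM, 29.3% were above in replicate 1 in all 3. The median ratio of replicate 1 to replicate 2 over the members was 1.83 in WT, 2.18 in the arr1-labelled libraries and 1.76 in Pro35SARR1.

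In the test of replicate 2 against replicate 1 across the genotypes, 7 of 20 members were called lower (35.0%) and none higher. Of all tested genes 1.43% were called lower and 1.53% higher. The rule compared libraries within each number, so all genes are not a like background for this share or for the counts just before it. DESeq2 also called 7 members lower, and 2.29% of all genes it tested. The called genes were PUP1, CRK22, CRK21, RL4, AT1G22900, AT3G44970 and CA2, each higher in replicate 1 in all 3 genotypes. The difference was widest in PUP1, at −2.40 on the log2 scale (SE 0.214, adjusted p = 0.0154, edgeR), and narrowest in CA2, at −0.52 (SE 0.0783, adjusted p = 0.0379, edgeR). The median over the 20 members was −0.91, beside −0.00 over all tested genes.

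The rule did not use the difference between replicate numbers, but it required the ratios to WT within each number. A gene that shifts alike between the numbers in all 3 genotypes can therefore pass it, and the residual spread in this test is not free of the rule. Without the 2 WT libraries, 17 members had enough counts and 3 were called lower, which were CRK22, PUP1 and AT3G16670, the last of which was not called with all libraries; 0.286% of all genes tested were called lower there. Of the 5 members no longer called, CRK21 and AT1G22900 had log2 fold changes of −2.19 and −1.75 without WT, beside −1.92 and −1.53 with all libraries. RL4, AT3G44970 and CA2 had −1.57, −0.78 and −0.44, beside −1.88, −0.86 and −0.52. The labels do not say what the replicate numbers stand for.

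**Figure D5:**
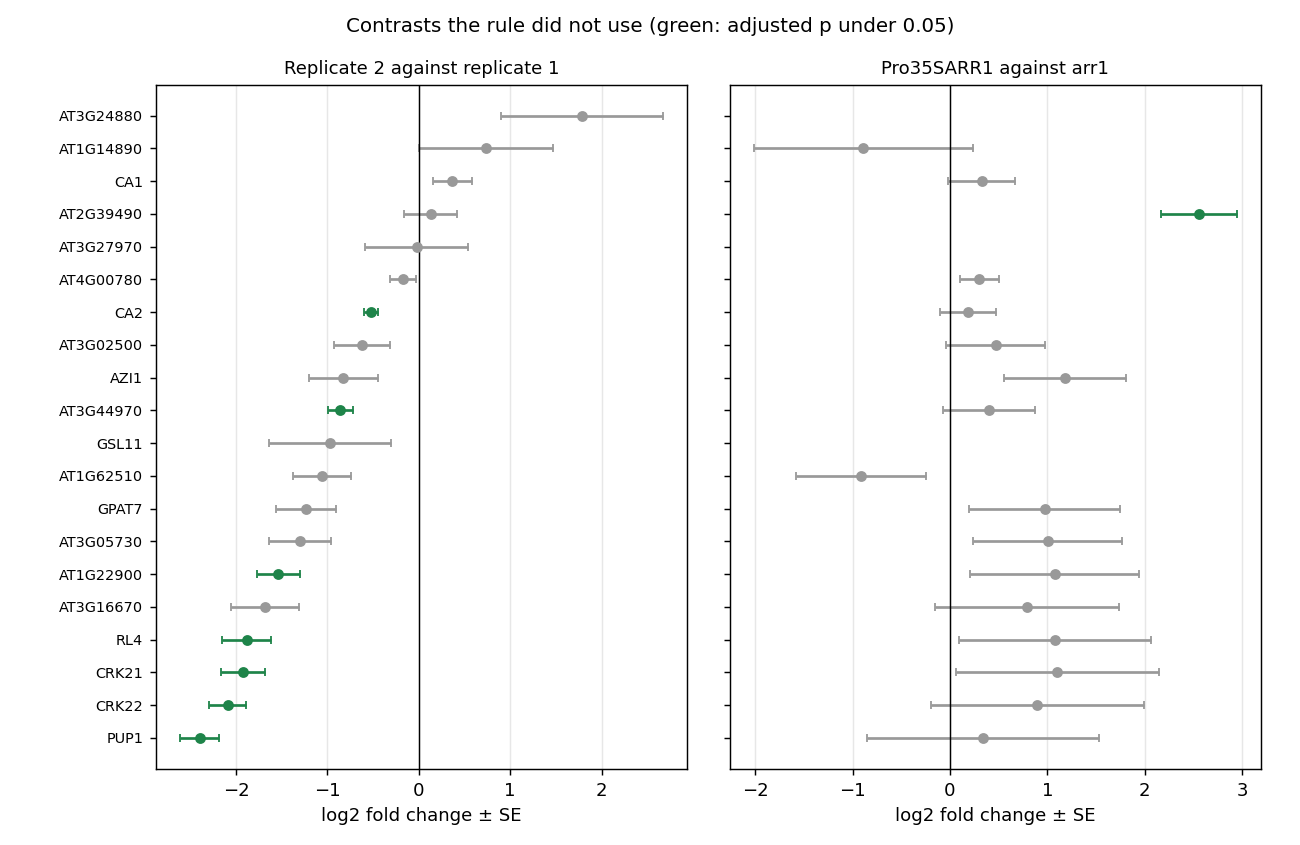
Log2 fold change ± SE of each member in replicate 2 against replicate 1 across the 3 genotypes (left) and in Pro35SARR1 against the arr1-labelled libraries (right); green marks an adjusted p under 0.05 in edgeR, and 3 genes at or under 3 counts in a genotype are left out on the right. The left panel has 7 green points, all below 0, and the right panel has 1, AT2G39490 at 2.56.

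Apart from CRK21 and CRK22 no members were neighbours. By chromosome, 4 were on chromosome 1, 2 on chromosome 2, 8 on chromosome 3, 4 on chromosome 4 and 2 on chromosome 5. No share over all genes was worked out for these counts. ARR1 also lies on chromosome 3, from base 5755821 to 5759443, and the member AT3G16670 from base 5681419 to 5682331. The part of linkage to ARR1 in the members' levels was not tested. Of 76 flanking genes examined, 41 had a mean WT level of at least 5 CPM. Any of these that met the 4 ratios would be a member by the rule, so their absence outside the set carries no information. At any level, 1 flanking gene met the ratios, PUP3 beside PUP1. Its level was 0 CPM in every library except WT replicate 2, so its ratios say little. None of the members was on any of 26 gene lists with 421 entries in the table, which cover root and shoot cell types, nutrient uptake, hormones and secondary metabolism. The lists hold only 420 different genes of the 26726 in the table, so this absence says little about the members. For 3 of those lists (photosynthesis, nitrogen uptake and assimilation, and ethylene) the summed CPM of both WT libraries was above that of the other 4 libraries, and for no list was it below them. The summed level of the 15 phloem genes was 1364 to 1924 CPM in WT, 857 to 964 CPM in the arr1-labelled libraries and 1416 to 1731 CPM in Pro35SARR1, and that of the 22 root hair genes was 198 to 376 CPM, 174 to 277 CPM and 288 to 638 CPM. The shoot epidermis and shoot meristem lists were instead highest in the arr1-labelled libraries. The 12 shoot epidermis and cuticle genes summed to 771 to 1230 CPM in WT and 797 to 1207 CPM in Pro35SARR1. In the arr1-labelled libraries they summed to 1742 to 2159 CPM. For the 15 shoot meristem genes the ranges were 142 to 172 CPM, 153 to 182 CPM and 232 to 281 CPM in the same order. Of the listed genes, none of the Casparian strip and suberin genes and 1 of the root hair genes was at 0 in all 6 libraries. The part of cell type makeup in the members' levels was not tested.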

How the data were processed

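Total RNA of root explants was sequenced in 6 libraries, 2 per genotype, with groups and numbers from the titles; AOE in the series text was read as Pro35SARR1. CASAVA and DESeq appear in the submitters' processing notes with neither version nor role. Aligner, quantifier, build and strand setting: not given in the sources used here. Per the file headers, the deposited table holds estimated counts and FPKM for 35593 isoforms of 26726 genes. The authors' deposited arr1 table gives log2 fold changes and FDR (adjusted p-values). Its count columns and other score columns deposited by the authors were not used.

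Estimated counts were summed per gene; CPM uses library totals. For tests they were rounded, kept by filterByExpr, scaled by TMM and fitted with edgeR 4.0.16 in R 4.3.3 (1 mean per genotype, Benjamini-Hochberg adjustment over 18083 genes, 3 residual degrees of freedom). The replicate contrast adds the replicate number (2 residual degrees of freedom). SEs are the log2 fold change over the square root of F. Alternatives used DESeq2 1.42.0 and limma 3.58.1 on log2(FPKM + 1). Same-numbered libraries deviated together across 16515 genes (Pearson r 0.287 for WT and arr1, 0.510 for WT and Pro35SARR1, 0.314 for arr1 and Pro35SARR1), so blocked values are given where they change a count; this pairing comes from the titles' numbers and the data. The test scripts were tested on simulated data with known changes and 1 common spread for all genes. For Pro35SARR1 against arr1, 26 of 100 2-fold and 97 of 100 4-fold changes were recovered, with 6 false calls. The replicate test recovered 57 and 99 of 100, with 6 false calls. Most 2-fold changes between Pro35SARR1 and arr1 would thus be missed. Genes with a wider spread than the simulated one would be recovered less often, 4-fold changes included. Among the members with an SE in this contrast, it ran from 0.199 (AT4G00780) to 1.89 (AT3G24880). Deposited gene starts lay within 500 bp of TAIR10.1 for 97.4% of 25946 matched genes. Members, gene lists and tests were chosen with earlier results of these data known, and all 20 members are named.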

Additional observations from a re-analysis of the deposited data

How the results depend on the processing

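The number of genes meeting the rule depended on its settings. It was 46 with a minimum of 1 CPM, 85 with a 1.5-fold and 6 with a 3-fold threshold, 7 with every WT library against every other library, and 41 with group means. From 1 replicate number alone it was 49 to 83. Chosen after seeing the data, the ratios to Pro35SARR1 alone gave 51 genes and those to the arr1-labelled libraries alone gave 258. TMM scaling, DESeq2 size factors and FPKM gave 23, 23 and 24 genes, which held all 20 members. With the replicate block 17 members were called lower in the arr1-labelled libraries against WT, 5 lower in Pro35SARR1 against WT and 3 higher in Pro35SARR1 against arr1, beside 1720, 161 and 2084 of all tested genes in these directions; the cause was not tested. In arr1 against WT, DESeq2 called 10 members lower of 902 genes, library totals 2 of 128, no filter on low counts 2 of 192, and leaving out any 1 library 0 of 0 to 11. In Pro35SARR1 against WT, DESeq2 called 4 members lower of 80 genes. In Pro35SARR1 against arr1, leaving out 1 library gave 0 to 1 called members and a median log2 fold change of 0.047 to 1.55; with library totals the median was 0.52. The replicate contrast called 3 members lower, of 51 genes, within the 4 libraries that are not WT. In Pro35SARR1 against arr1 single members changed direction in 15 of 225 values, all with a library left out; in the replicate contrast, where no single library was left out, none of 77 did. In Pro35SARR1 against arr1 the log2 fold changes of the 12 members concerned, with 1 library left out, ran from −7.41 to 0.098 for AT1G14890, −1.30 to 2.37 for PUP1, −0.26 to 1.76 for RL4, −0.13 to 0.996 for CA1, −0.099 to 1.41 for AT3G02500 and −0.25 to 2.83 for AT3G16670. They ran from −6.03 to 3.17 for AT3G24880, −0.032 to 1.00 for AT3G44970, −0.062 to 3.12 for CRK21, −0.65 to 2.77 for CRK22, −0.12 to 1.73 for GPAT7 and −0.050 to 0.457 for CA2; AT1G14890 and AT3G24880 have a library near 0 counts, so these values depend on the prior count. Single members were not followed through the alternatives in the contrasts with WT. 2 libraries per genotype limit every test.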
